A study of Mus musculus with 4 samples.

Results

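The integrated stress response genes described here are Atf4, Atf5, Atf3, Ddit3, Nupr1, Trib3, Ppp1r15a, Asns, Chac1 and Sesn2. They were chosen by symbol, as well-known genes of the ATF4-CHOP pathway, and all 10 were found among the 16051 genes of the deposited table. Their levels were compared in differentiated 3T3-L1 cells, a mouse embryonic fibroblast line that can be turned into adipocytes in culture, after 48 h with 100 μM risperidone, a second-generation antipsychotic, or without it. Each treatment had 2 libraries of mRNA sequencing, and each library held RNA pooled from 3 cultures. The labels call the control cells untreated and their tissue embryonic, give the strain as NIH SWISS and describe an extraction from retina, whereas the methods of the study name DMSO as the control and do not mention retina. Both groups had been through the same differentiation with isobutyl-methylxanthine, dexamethasone and insulin. Since cultures were pooled and nothing says that the libraries of a group came from separate experiments, the p-values measure only the spread between these libraries, which may be technical.

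In the integrated stress response, kinases that sense endoplasmic reticulum stress, amino acid shortage, heme shortage or double-stranded RNA phosphorylate the initiation factor eIF2. General translation then falls while the mRNA of ATF4 is translated more, because short upstream reading frames in its leader no longer keep ribosomes away from the coding sequence. ATF4 binds composite C/EBP-ATF sites together with C/EBP proteins and induces CHOP (encoded by Ddit3), ATF3, TRIB3 and genes of amino acid supply, and GADD34 (encoded by Ppp1r15a) closes the loop by bringing a phosphatase back to eIF2. In preadipocytes CHOP is known as an inhibitor of C/EBP-driven adipogenesis. The mRNA levels given here do not show the phosphorylation of eIF2 or the amount of any protein.

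Risperidone libraries held 3.99 times the Ddit3 mRNA of the controls, and 2.26 times the Atf3 and 1.88 times the Chac1 mRNA. Atf4 itself rose by 1.20-fold, and Trib3 and Asns by 1.25-fold and 1.12-fold, but each of these 3 lost its call under some settings, Asns under most, and Atf4 and Asns turned to log2 values of -0.01 and -0.08 with limma on log2(TPM + 1). The opposite was measured for Sesn2, Atf5 and Nupr1, which fell by 2.85-fold, 2.57-fold and 1.47-fold. Ppp1r15a did not pass the threshold. All 10 genes passed the filter on low levels. Thus, with an adjusted p under 0.05 as the threshold, 6 of the 10 genes were higher and 3 lower, while of all 10243 genes tested 32.1% were higher and 32.2% lower. When a log2 fold change of 1 or more in size was required as well, 2 of the 10 genes were higher, against 2.61% of all genes, and 2 were lower, against 3.91%. The median log2 fold change was 0.21 over the 10 genes and 0.00 over all genes tested.

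Groups were compared by the quasi-likelihood F-test of edgeR on the estimated counts, two-sided, for genes whose mean over the libraries reached 1 FPKM (fragments per kilobase of transcript, scaled to the mapped fragments of the library), and all adjusted p-values were adjusted over these genes by the method of Benjamini and Hochberg. Log2FC is the log2 fold change of risperidone over control, given with its standard error (SE), and levels are given as FPKM, which are per length and so can be compared between genes. An exact permutation test of 2 libraries against 2 cannot give a two-sided p under 0.333, so none was used for single genes. Where a library is left out, the group with 1 library is assumed to vary like the other group, whose 2 libraries supply the spread together with the moderation across genes.

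The sequences before the start sites of 5 of the genes are shown. These are Ddit3, the gene with the largest rise, and the 4 genes with a C/EBP-ATF motif before the start site, of which 3 were higher and Nupr1 was lower. Each is the 250 bases before the RefSeq start site on the gene's own strand (GRCm38.p6), written 5′ to 3′, and the capitals mark a C/EBP-ATF motif (TGATGNAA on either strand) or, in Ddit3, an AP-1 motif (TGANTCA). The regions are chr10:127290543-127290792 for Ddit3 (plus strand), chr1:191183334-191183583 for Atf3 (minus strand), chr2:119350992-119351241 for Chac1 (plus strand), chr6:7693210-7693459 for Asns (minus strand) and chr7:126625471-126625720 for Nupr1 (minus strand).
Ddit3: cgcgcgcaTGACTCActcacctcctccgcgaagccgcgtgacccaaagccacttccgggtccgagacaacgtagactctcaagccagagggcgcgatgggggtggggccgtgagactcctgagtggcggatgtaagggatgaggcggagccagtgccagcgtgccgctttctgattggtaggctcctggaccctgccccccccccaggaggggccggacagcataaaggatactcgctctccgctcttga
Atf3: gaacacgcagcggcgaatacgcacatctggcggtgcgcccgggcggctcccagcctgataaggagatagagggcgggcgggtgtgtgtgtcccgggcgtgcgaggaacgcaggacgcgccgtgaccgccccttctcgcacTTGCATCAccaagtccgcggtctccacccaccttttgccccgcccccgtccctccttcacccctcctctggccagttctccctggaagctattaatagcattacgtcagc
Chac1: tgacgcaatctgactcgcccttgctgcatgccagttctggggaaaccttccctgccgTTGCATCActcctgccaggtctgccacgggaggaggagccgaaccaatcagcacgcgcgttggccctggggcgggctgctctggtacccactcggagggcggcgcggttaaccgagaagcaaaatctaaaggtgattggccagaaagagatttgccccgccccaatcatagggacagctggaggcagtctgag
Asns: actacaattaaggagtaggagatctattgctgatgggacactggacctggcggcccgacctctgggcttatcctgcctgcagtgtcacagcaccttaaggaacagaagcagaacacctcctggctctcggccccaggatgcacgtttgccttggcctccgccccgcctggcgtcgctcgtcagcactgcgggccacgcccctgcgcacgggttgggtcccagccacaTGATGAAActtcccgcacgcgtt
Nupr1: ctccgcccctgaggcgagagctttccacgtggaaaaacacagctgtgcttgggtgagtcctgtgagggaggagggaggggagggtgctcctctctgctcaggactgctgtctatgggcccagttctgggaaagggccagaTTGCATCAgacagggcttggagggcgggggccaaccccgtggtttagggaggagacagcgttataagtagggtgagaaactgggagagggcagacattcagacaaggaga

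The C/EBP-ATF motif, searched as TGATGNAA on both strands from 250 bases before to 50 bases after each start site, was present in 5 of the 10 genes, in 4.51% of all 27025 RefSeq genes with such windows and in 3.97% of the 32851 windows. It was read as TTGCATCA in Atf3 and Nupr1, with its first base at -110 in both, and at -193 in Chac1. Asns held it as TGATGAAA at -23, and Trib3 as TTACATCA at 15, after the start site. Of the 6 genes that were higher 4 had the motif, and of the 3 that were lower 1 had it, which was Nupr1. Atf3, Chac1 and Nupr1 thus shared the same 8 letters while the first 2 were higher and Nupr1 was lower in the risperidone libraries. Among the other genes of the pathway that are described after these, 14 of 70 with a promoter window held the motif.

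An AP-1 motif (TGANTCA, in 8.97% of all genes) was found in Ddit3 alone of the 10 genes, as TGACTCA at -242. The cyclic AMP response element TGACGTCA (in 2.03% of all genes) was found in Ppp1r15a alone, at -12. The endoplasmic reticulum stress element, searched as CCAAT and CCACG with any 9 bases between them (in 0.137% of all genes), was in none of the 10 and in 8 of the 70 other genes. A match describes letters in these windows and not a site in use, and the lack of a match does not exclude a site outside the windows.

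Before the single genes, the libraries themselves need a description. They held between 15883712 and 16374119 estimated counts, and a count of 0 allows up to 3 counts, or 0.183 to 0.189 CPM, for counting error only. Risperidone replicate 2 stood apart by genes of the kidney tubule, whose 12 listed markers summed to 197.1 FPKM there and to 1.95 to 2.82 FPKM in the other 3 libraries. All 12 kidney markers had counts in that library. Retina markers, of which 5 of 8 were in the table, summed to 0.62 to 1.15 FPKM. The adipocyte label was met only in part. Lpl was at 190.9 to 250.3 FPKM and Fabp4 at 59.5 to 168.7 FPKM, but the defining adipocyte genes Adipoq, Cidec and Adrb3 had between 0 and 2 counts in every library and Plin1 had between 1 and 14. Over the whole adipocyte list, 10 of 10 genes were in the table and 6 were tested, 1 was higher and 3 were lower, and the summed level was 441.0 and 497.6 FPKM in the controls and 331.5 and 341.0 FPKM with risperidone. For preadipocyte and fibroblast markers 8 of 8 genes were tested, 4 were higher and 2 lower, and the sums were 2128 and 2065 FPKM in the controls and 2316 and 2314 FPKM with risperidone. Of these, Dlk1, Thy1 and Col1a1 were higher by log2 fold changes of 1.52, 1.05 and 0.99, while Pdgfrb and Col1a2 were lower (-0.50 and -0.16). Pdgfra (-0.03) and Vim (0.05) did not pass the threshold. Ly6a had 26 and 24 counts in the controls and 34 and 74 with risperidone, so that its log2 fold change of 1.20 came mostly from risperidone replicate 2. Of the adipocyte list, Lipe, Fabp4 and Lpl were lower (-1.12, -1.09 and -0.24) and Pnpla2 was higher (0.23). Pparg (0.12) and Cd36 (0.27) did not pass the threshold. Macrophage markers (5 of 6 in the table) summed to 15.5 to 18.3 FPKM with Ptprc at 0 to 3 counts, and of the 2 tested Cd68 was higher (log2 fold change 1.19) and Cd14 lower (-0.35). Endothelial markers (5 of 5) summed to 0.13 to 0.92 FPKM. In bulk RNA, a change in the number of cells of a type and a change in RNA per cell cannot be told apart, and the part of these marker shifts in the results on the stress response genes was not tested.

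**Figure D1:**
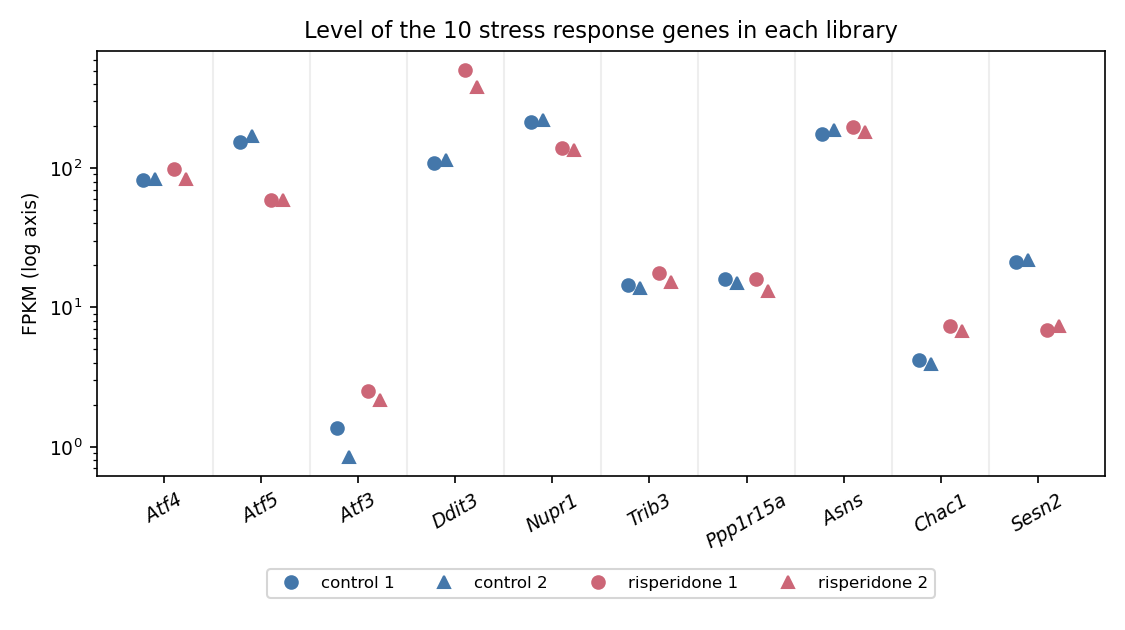
Level of each of the 10 genes in FPKM (log axis) in the 4 libraries, blue for control and red for risperidone, circles for replicate 1 and triangles for replicate 2. Ddit3 moved from 107.95 and 114.25 FPKM to 503.81 and 382.69 FPKM, and Atf5 and Sesn2 moved down by more than their replicates differed.

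Atf4, the transcription factor at the head of the pathway (chromosome 15, 80255184 to 80257545), was measured at 82.46 and 83.16 FPKM in the control libraries and at 98.76 and 83.77 FPKM in the risperidone libraries. Both risperidone values were above both control values, but replicate 2 was above the higher control by less than 1 FPKM. This gave a log2FC of 0.27 (SE 0.0667, adjusted p = 0.00485 by edgeR). Without risperidone replicate 1 the log2FC was 0.15, with 1 risperidone library left. With no filter on low values the log2FC was nearly the same, 0.26, with an adjusted p of 0.0561 by edgeR. Limma on log2(FPKM + 1) gave 0.13 with an adjusted p of 0.154.

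Ddit3 encodes CHOP, a C/EBP family member that is induced by ATF4 and is linked to cell death under prolonged stress (chromosome 10, 127290793 to 127296291). Its FPKM was 107.95 and 114.25 in the controls and 503.81 and 382.69 with risperidone. The groups were far apart, with estimated counts of 1443 and 1485 against 6229 and 4737. The fold change was 3.99 (95% interval from 3.41 to 4.68), and the log2FC was 1.998 (SE 0.103, adjusted p = 9.04e-08 by edgeR). Under the 16 alternatives it ranged from 1.79 to 2.18 on the log2 scale and passed the threshold in each. Replicate 1 exceeded replicate 2 by 0.38 on the log2 scale in the risperidone group, a gap larger than that of 95% of the genes tested. Ddit3 shares 77 bases with Mbd6 and 71 bases with Mars1, whose log2FC values were -0.29 and 0.22 and whose counts stayed at or under 1108 in every library. Whether the counting used strand is not given in the sources used here.

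Atf3, a stress-induced factor that acts mainly as a repressor (chromosome 1, 191170296 to 191183333), was the least abundant of the 10. It was measured at 1.36 and 0.85 FPKM in the controls and 2.53 and 2.16 FPKM with risperidone, from 41, 25, 76 and 64 counts. The risperidone values lay above both control values. The log2FC was 1.18 (SE 0.260, adjusted p = 0.00218 by edgeR), with the widest error of the 10 genes. It ranged from 0.68 to 1.56 over the 15 alternatives that tested it.

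Atf5, a relative of ATF4 whose mRNA is also translated under eIF2 phosphorylation and which is linked to mitochondrial stress (chromosome 7, 44812256 to 44816658), went the other way. Its level was 154.02 and 170.20 FPKM in the controls and 58.93 and 59.14 FPKM with risperidone. The risperidone libraries were nearly equal and far below both controls. The change was a log2FC of -1.36 (SE 0.0561, adjusted p = 2.41e-08 by edgeR). Atf5 overlaps Nup62 by 571 bases, and Nup62 had a log2FC of 0.41, in the opposite direction. It also overlaps Il4i1b by 289 bases, which had at most 25.9 counts.

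Nupr1 encodes a small chromatin-associated stress protein (chromosome 7, 126623246 to 126625470) and had the highest control level of the 10 genes. The controls stood at 212.44 and 222.15 FPKM and the risperidone libraries at 139.83 and 133.92 FPKM, with no overlap. From this the log2FC was -0.56 (SE 0.0565, adjusted p = 8.79e-06 by edgeR). All 2225 bases of Nupr1 lie within the span of the predicted gene Gm39087, for which no value was analysed here.

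Of the feedback genes, Trib3, a pseudokinase that binds ATF4 and CHOP and dampens their activity (chromosome 2, 152337425 to 152344060), was at 14.47 and 13.79 FPKM in the controls and 17.69 and 15.28 FPKM with risperidone, again without overlap. The log2FC was 0.32 (SE 0.0789, adjusted p = 0.00436 by edgeR). Without risperidone replicate 1 it was 0.20 with an adjusted p of 0.0535, just over the threshold of 0.05. Ppp1r15a, the stress-inducible subunit that directs protein phosphatase 1 to eIF2 (chromosome 7, 45522917 to 45526268), was at 16.09 and 14.97 FPKM in the controls and 15.95 and 13.22 FPKM with risperidone. These values overlapped. Its log2FC was 0.01 with a 95% interval from -0.18 to 0.20 (adjusted p = 0.954 by edgeR), so changes of up to about that size in either direction were not detectable here. Ppp1r15a overlaps Tulp2 by 730 bases, but Tulp2 had at most 1 count in any library.

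Of the effector genes of metabolism, Chac1 encodes an enzyme that breaks down glutathione and is induced by ATF4, often with ATF3 and CHOP (chromosome 2, 119351242 to 119354326). It was measured at 4.17 and 3.90 FPKM in the controls and 7.40 and 6.77 FPKM with risperidone, and the groups were clearly apart. The log2FC was 0.91 (SE 0.149, adjusted p = 0.000298 by edgeR).

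Asns encodes asparagine synthetase, a classical ATF4 target (chromosome 6, 7675165 to 7693209). Its FPKM was 175.27 and 188.02 in the controls and 197.63 and 181.55 with risperidone, so the groups overlapped on this scale. From the counts the log2FC was 0.16 (SE 0.0572, adjusted p = 0.0304 by edgeR). Leaving out control replicate 1 gave 0.11 with an adjusted p of 0.235, and leaving out risperidone replicate 1 gave 0.09 with an adjusted p of 0.138. Neither value passed the threshold, with 1 library on one side of each comparison. Of the 16 alternatives 7 kept the call of Asns, 8 lost it and 1 turned the direction. The losses included no filter on low values (log2FC 0.16, adjusted p = 0.113), where the fold was nearly unchanged. With library size only (0.065, adjusted p = 0.328) and length and GC offsets (0.12, adjusted p = 0.0964), also by edgeR, the fold was smaller. Limma after quantile normalization gave 0.012 (adjusted p = 0.833).

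Sesn2 encodes a leucine-binding inhibitor of mTORC1 signaling that ATF4 and p53 induce (chromosome 4, 132492804 to 132510456). It had 21.16 and 22.02 FPKM in the controls and 6.84 and 7.32 FPKM with risperidone, the largest fall of the 10 genes. The log2FC was -1.51 (SE 0.0634, adjusted p = 2.61e-08 by edgeR), and it ranged from -1.68 to -1.37 over 16 alternatives.

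**Figure D2:**
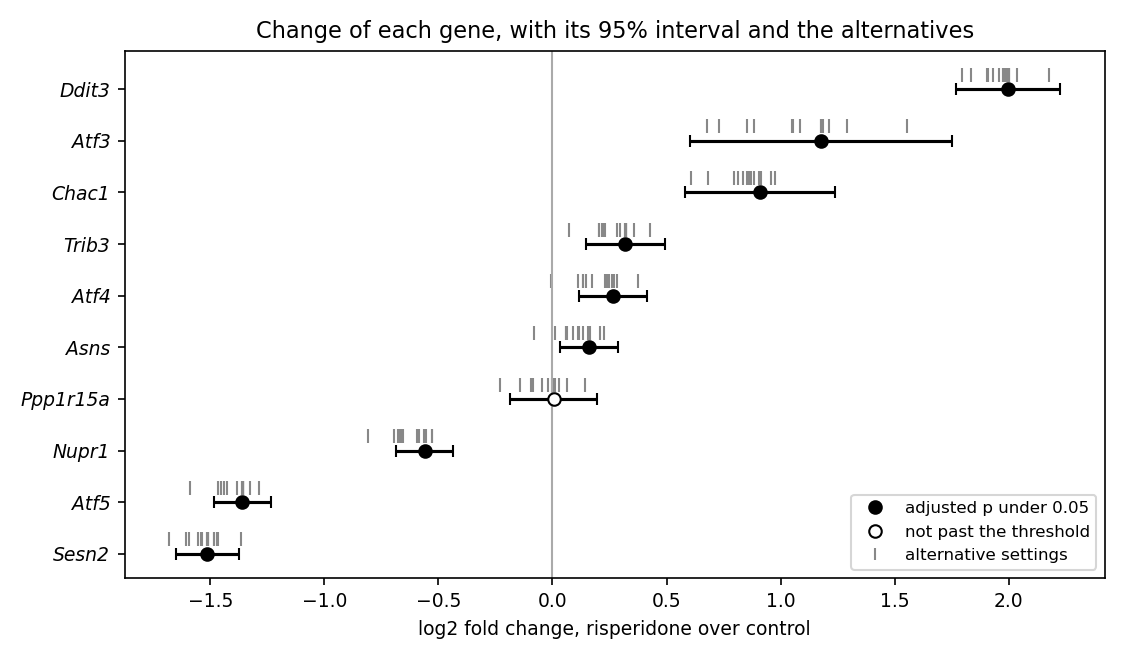
Log2 fold change of each gene, risperidone over control, with its 95% interval (black bars), filled points for an adjusted p under 0.05 and an open point for Ppp1r15a, and grey ticks for each alternative setting. Ddit3, Atf3 and Chac1 lie above 0 and Nupr1, Atf5 and Sesn2 below 0 in all settings, whereas ticks of Atf4, Asns and Ppp1r15a reach or cross 0, for Atf4 and Asns with limma on log2(TPM + 1).

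Without risperidone replicate 2, the library with the kidney transcripts, 6 of the 10 genes were higher and 3 lower, with the spread taken from the controls. The log2FC was then 2.18 for Ddit3, 1.29 for Atf3, 0.98 for Chac1, 0.43 for Trib3, 0.37 for Atf4, 0.22 for Asns and 0.14 for Ppp1r15a. Each of these 7 values was larger than with the library. For Sesn2 it was -1.555, for Atf5 -1.36 and for Nupr1 -0.53. In the risperidone group 9 of the 10 genes were higher in replicate 1 than in replicate 2 on the scale of normalized CPM, against 50.4% of the genes tested. The exception was Sesn2. These gaps went from 0.005 for Atf5 and 0.06 for Nupr1 to 0.38 for Ddit3 on the log2 scale, where the median gap over all genes was 0.089 in size. Genes of a pathway can move together, so the 10 signs are not independent. In the controls 4 of the 10 were higher in replicate 1.

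Limma on log2(TPM + 1), which changed the test and the scaling together, moved the median log2FC over all genes to -0.22 and gave -0.01 and -0.08 for Atf4 and Asns. By this test 3 of the 10 genes were higher and 4 were lower, and among all genes 1536 were higher and 5292 lower, against 3287 and 3303 with TMM factors. Library size as the only scaling gave 2500 and 4092, with 5 of the 10 genes higher and 3 lower. Limma on log2(FPKM + 1) gave 2420 and 3975, with 3 and 3. Atf4, Trib3 and Asns lost their call with limma on log2(FPKM + 1) (adjusted p = 0.154, 0.0511 and 0.396) and also with limma on TPM, whereas with limma on log2(FPKM + 0.1) Trib3 kept it (adjusted p = 0.0492). Relative to the median of all genes, the TPM values were 2.06 for Ddit3, 0.95 for Atf3, 0.83 for Chac1, 0.30 for Trib3, 0.22 for Atf4, 0.14 for Asns and -0.01 for Ppp1r15a. On that relative scale Nupr1, Atf5 and Sesn2 were at -0.58, -1.37 and -1.46.

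The order of the levels changed with the treatment. By mean FPKM, the control order from the highest was Nupr1 (217.3 ± 6.87, SD, n = 2), Asns (181.6 ± 9.02), Atf5 (162.1 ± 11.4), Ddit3 (111.1 ± 4.45), Atf4 (82.8 ± 0.495), Sesn2 (21.6 ± 0.608), Ppp1r15a (15.5 ± 0.792), Trib3 (14.1 ± 0.481), Chac1 (4.04 ± 0.191) and Atf3 (1.11 ± 0.361). No library of one gene overlapped those of its neighbour in that order. With risperidone, Ddit3 was first at 443.2 ± 85.6 FPKM (SD, n = 2), followed by Asns (189.6 ± 11.4), Nupr1 (136.9 ± 4.18), Atf4 (91.3 ± 10.6), Atf5 (59.0 ± 0.148), Trib3 (16.5 ± 1.70), Ppp1r15a (14.6 ± 1.93), Chac1 (7.09 ± 0.445), Sesn2 (7.08 ± 0.339) and Atf3 (2.35 ± 0.262). The values of Trib3 and Ppp1r15a overlapped in this group, as did those of Chac1 and Sesn2. Sesn2, which had been above Chac1 in the controls, was thus level with it.

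Ratios within a library do not depend on how the libraries were scaled, but ratios of FPKM do depend on the length assigned to each gene, described after them. Ddit3 over Atf4, the CHOP mRNA per unit of ATF4 mRNA, was 1.31 and 1.37 in the controls and 5.10 and 4.57 with risperidone, which is 3.60 times as high in the mean. Atf5 over Atf4 went from 1.87 and 2.05 to 0.597 and 0.706. The 2 relatives thus exchanged places, with Atf5 above Atf4 in both controls and under it in both risperidone libraries. Sesn2 over Atf4 was 0.257 and 0.265 in the controls and 0.0693 and 0.0874 with risperidone. Trib3 over Atf4 was 0.175 and 0.166 against 0.179 and 0.182, and Asns over Atf4 was 2.13 and 2.26 against 2.001 and 2.17. For Trib3 and Asns the mean ratios differed by 1.06 and 0.950 times, so these genes moved about as much as Atf4 did. Ddit3 over Atf5 combined the opposite changes and went from 0.701 and 0.671 to 8.55 and 6.47, or 10.9 times as high.

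**Figure D3:**
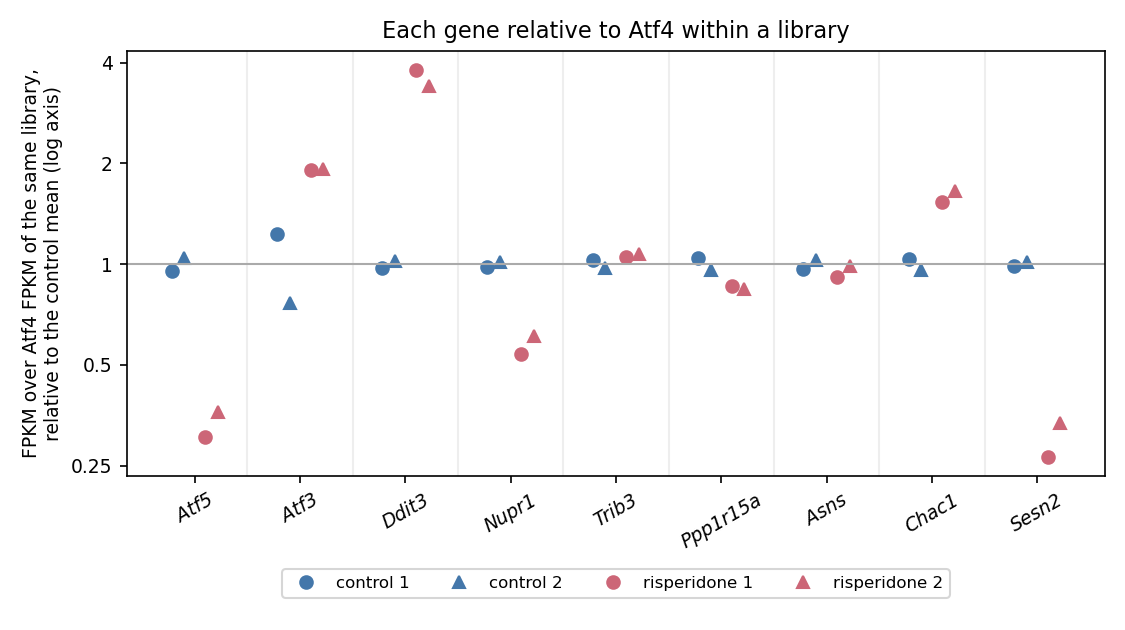
FPKM of each gene over the FPKM of Atf4 in the same library, divided by the mean of that ratio over the controls (log axis), with colours and symbols for the 4 libraries. The ratio for Ddit3 was 3.60 times the control mean and that for Sesn2 0.300 times, while those for Trib3 and Asns were 1.06 and 0.950 times.

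The estimated count per FPKM, scaled to a common depth, follows the length that the authors' counting assigned to a gene, and it can move when the use of transcripts changes. For Ddit3 it changed by -6.29% with risperidone, and 5.31% of the genes tested moved by at least as much. For Atf4 it was higher by 2.05%, a change that 17.0% of genes reached. A fall raises the FPKM for the same count, so the FPKM ratios of Ddit3 over Atf4 and over Atf5 rose more than ratios of counts would. For the remaining 8 genes it rose by at most 0.755% or fell by less than that.

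The other genes of the response were read from 6 lists with 90 genes in all, of which 82 were tested. Of these, 40 were higher, 22 were lower and 20 did not pass the threshold, and their median log2FC was 0.13. Over all genes tested 32.1% were higher and 32.2% lower, with a median of 0.00. The counts of each list by edgeR with TMM factors that follow are to be read against these shares. For counts under other scalings, the numbers over all genes under the same setting are given beside them. Without risperidone replicate 2 the numbers for the 82 genes were 41 and 22. Limma on log2(FPKM + 1) gave 27 and 24, where 2420 of all 10243 genes were higher and 3975 lower. Limma on log2(TPM + 1) gave 17 and 33, where 1536 of all genes were higher and 5292 lower. With a log2FC of 1 or more in size, 1 of the 82 was higher and 3 were lower, against 2.61% and 3.91% of all genes.

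Upstream of Atf4, the list of eIF2 kinases, eIF2 and eIF2B subunits and their regulators had 18 genes tested, with 8 higher, 6 lower and a median of 0.13. Impact, which restrains the amino acid sensor kinase GCN2, fell from 59.31 and 60.32 FPKM to 31.02 and 31.99 FPKM (log2FC -0.84, SE 0.0457). Eif2b3, a subunit of the exchange factor that phosphorylated eIF2 blocks, rose from 15.25 and 15.77 FPKM to 23.73 and 24.27 FPKM (0.74, SE 0.0632). Ppp1r15b, the constitutive counterpart of Ppp1r15a, fell from 10.47 and 10.23 FPKM to 6.06 and 6.65 FPKM (-0.61, SE 0.0650), so the phosphatase subunit that fell was the constitutive one. The difference between Ppp1r15b and Ppp1r15a was not tested.

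Among the bZIP proteins that pair with ATF4, CHOP or ATF3, 7 of 9 were tested, 1 was higher, 4 were lower and the median was -0.22. Nfe2l2 encodes NRF2, the main inducer of antioxidant genes, and fell from 74.06 and 74.25 FPKM to 33.95 and 37.15 FPKM (log2FC -0.96, SE 0.0521). Jun, a subunit of AP-1, had a log2FC of -0.48 (SE 0.0615). Jdp2, an AP-1 repressor, was the gene that was higher, with 0.32 (SE 0.0592), and lost its call with limma on log2(TPM + 1) (0.08, adjusted p = 0.233).

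Further target genes of ATF4 or CHOP had 7 of 12 tested, with 3 higher, 2 lower and a median of 0.13. With limma on FPKM, at either pseudocount, and on TPM 1 gene of the list was higher and 2 were lower. Of all 10243 genes, 2420 were higher and 3975 lower on log2(FPKM + 1), 2423 and 3971 on log2(FPKM + 0.1) and 1536 and 5292 on log2(TPM + 1). Fgf21, Gdf15, Stc2 and Pmaip1 were under the filter, with 6 counts or fewer in every library, and Adm2 was not in the table. Ddit4, an inhibitor of mTORC1 like Sesn2, fell from 97.93 and 95.79 FPKM to 22.45 and 25.14 FPKM (log2FC -1.93, SE 0.0626). Vldlr, a lipoprotein receptor, had a log2FC of -0.65 (SE 0.0510) and Ero1l, an oxidase of the endoplasmic reticulum that CHOP induces, one of 0.48 (SE 0.0524). Ddit4 and Sesn2 were thus both lower while Ddit3 was higher.

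For amino acid import and synthesis, 18 of 19 genes were tested, 6 were higher, 6 were lower and the median was -0.01, close to the 32.1% higher and 32.2% lower of all genes. The named genes of this list did not share a direction. Slc7a11, the cystine importer that feeds glutathione synthesis, fell from 2.27 and 2.17 FPKM to 0.50 and 0.69 FPKM (log2FC -1.79, SE 0.153). Slc38a2, a sodium-coupled importer of neutral amino acids, had a log2FC of -1.07 (SE 0.0533). Pycr1, an enzyme of proline synthesis, rose from 1.70 and 2.11 FPKM to 4.16 and 4.34 FPKM (1.27, SE 0.185). With limma on log2(FPKM + 1) 3 genes of this list were higher and 7 lower, against 2420 and 3975 of all 10243 genes. With limma on log2(TPM + 1) the numbers were 3 and 11, against 1536 and 5292 of all genes.

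The list of ATF4-linked cytosolic aminoacyl-tRNA synthetases, which load amino acids on tRNA and of which other members were not listed, had 12 genes, all tested, with 8 higher, 1 lower and a median of 0.23. Yars, Gars and Sars led with log2FC values of 0.49 (SE 0.0520), 0.40 (SE 0.0524) and 0.38 (SE 0.0494). The changes were small, and with library size as the only scaling 5 were higher and 2 lower, against 2500 and 4092 of all 10243 genes. Limma on log2(FPKM + 1) also gave 5 and 2, against 2420 and 3975 of all genes. Limma on log2(TPM + 1) gave 3 and 3, against 1536 and 5292 of all genes.

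Endoplasmic reticulum folding genes, listed for the ATF6 and IRE1 arms of the unfolded protein response, had 20 tested, with 14 higher, 3 lower and a median of 0.25, where 32.1% and 32.2% of all genes were higher and lower. Whether ATF4 acts on them as well was not examined. Calr, a calcium-binding chaperone, rose from 727.20 and 730.48 FPKM to 1260.51 and 1136.93 FPKM (log2FC 0.82, SE 0.0580). Creld2, a secreted stress-inducible protein, had a log2FC of 0.57 (SE 0.0729), and Ern1, which encodes the sensor IRE1 itself, one of -0.63 (SE 0.0671). None of the 20 reached a log2FC of 1 or more in size. Limma on log2(FPKM + 1) gave 10 higher and 3 lower, against 2420 and 3975 of all 10243 genes. Limma on log2(TPM + 1) gave 5 and 5, against 1536 and 5292 of all genes. The adjusted p of every gene named from the 6 lists was 0.000634 or less by edgeR, adjusted over all genes.

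**Figure D4:**
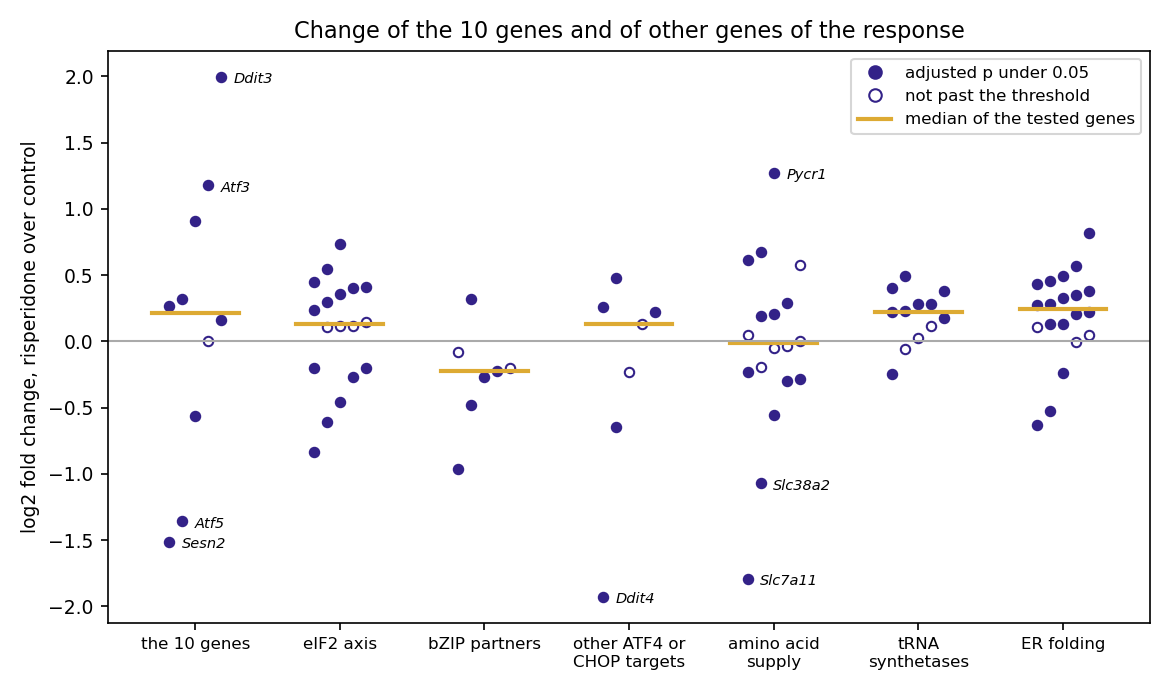
Log2 fold change, risperidone over control, of each tested gene in the set of 10 and in 6 other lists of the response, filled where the adjusted p was under 0.05, with a bar at the median. Single genes such as Ddit3 (1.998), Sesn2 (-1.51), Ddit4 (-1.93) and Slc7a11 (-1.79) lie far from medians between -0.22 and 0.25. With limma on log2(TPM + 1) the numbers higher and lower were 3 and 4 for the set of 10, 17 and 33 for the lists and 1536 and 5292 for all 10243 genes. With limma on log2(FPKM + 1) they were 3 and 3, 27 and 24, and 2420 and 3975.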

How the data were processed

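The 4 libraries of differentiated 3T3-L1 cells, 2 per group, were grouped by the treatment in the labels. Per the methods of the study, reads were cleaned of adaptors, poly-N and low-quality reads, and the authors computed FPKM on their DC.TOM platform. The submitters' processing notes name Bowtie2, RSEM and DESeq2 and the build GRCm38.p6, with versions not given in the sources used here. The deposited table holds an estimated count (expected count), an FPKM and a TPM per gene and library, and 91.2% to 91.7% of the deposited estimated counts of a library are whole. The deposited TPM values were used only as an alternative scaling. The 6 columns of the authors' means over replicates were not used.

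Estimated counts were rounded (those of the 10 members are whole in every library) and fitted with edgeR 4.0.16 under R 4.3.3, using TMM factors (1.03, 1.03, 0.963 and 0.973) and the 10243 genes whose mean reached 1 FPKM. The common biological coefficient of variation came to 0.0468. The F-test of the quasi-likelihood fit was two-sided, p-values were adjusted over these genes by the method of Benjamini and Hochberg, and the threshold was an adjusted p of 0.05. The standard error of a gene is the size of its log2 fold change over the root of its F statistic. The members and all lists were chosen with earlier results of these data known. Named are all members and, from each of the 6 other lists, the 3 called genes with the largest absolute change, 28 genes in all, with overlapping neighbours and marker genes beside them. Alternatives were DESeq2 1.42.0, limma 3.58.1 on FPKM (pseudocounts 1 and 0.1), on TPM and after quantile normalization, other scalings, filters on low values, length and GC offsets, the replicate number as a block, and each library left out. On simulated data with 200 changed genes among 10243, edgeR recovered 199 with 8 false calls. Recovery with as many changed genes as were called here, 3287 higher and 3303 lower, was not tested. Recovery of changes as small as those of Atf4, Trib3 and Asns was not tested separately. Positions and promoter windows are from RefSeq (GRCm38.p6), matched by gene identifier. Tables and figures were made with Python 3.11.15, pandas 2.3.3 and matplotlib 3.10.9.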

Additional observations from a re-analysis of the deposited data

How the results depend on the processing

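Ddit3, Chac1, Atf3, Atf5, Nupr1 and Sesn2 kept their direction and their call under every alternative that tested them, except that Chac1 and Nupr1 are under a log2 fold change of 1 in size. Over all 10 genes, the alternatives gave 134 values on the same side of the threshold and in the same direction, 15 that lost the call and 10 that turned direction. The values that turned were those of Atf4 (-0.0078) and Asns (-0.082) with limma on log2(TPM + 1) and those of Ppp1r15a, which was not called, with a mean of at least 5 FPKM (-0.019), without control replicate 2 (-0.05), without risperidone replicate 1 (-0.14), with library size only (-0.087), with limma on log2(FPKM + 1) (-0.090) and log2(FPKM + 0.1) (-0.10), with limma on log2(TPM + 1) (-0.23, adjusted p = 0.0378) and with length and GC offsets (-0.002366). Leaving out each library in turn gave -0.14 to 0.14 for Ppp1r15a. It was called lower with limma on TPM, where the median of all genes was -0.22.

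The members called higher, 6 in the fit reported, were 3 with limma on log2(FPKM + 1), 3 with limma on log2(TPM + 1) and 2 when a log2 fold change of 1 or more in size was required. Other pathway genes called higher, 40, were 17 with limma on TPM (27 on FPKM) and 1 at that fold, and those called lower, 22, were 3 at that fold. Of all 10243 genes, 3287 were higher in the fit reported, 1536 with limma on TPM, 2420 on log2(FPKM + 1) and 267 at that fold. Lower were 3303 in the fit reported and 401 at that fold. With each library left out in turn, and the spread supplied by the other group, 4 to 6 members were higher and 3 lower, and 32 to 41 other pathway genes were higher and 20 to 25 lower. With DESeq2 6 members were higher and 3 lower. Atf4 also lost its call after quantile normalization (0.11, adjusted p = 0.198 from limma).

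Same-numbered libraries share only a number in the labels, and their deviations correlated at -0.10. The replicate block gave 6 members higher and 3 lower, and 39 and 23 other pathway genes. A crossed replicate block, chosen after seeing the data, gave 6 and 3 members and 43 and 23 other pathway genes.

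With 2 pooled libraries per group, variation between cultures was not measured. Depth limits Atf3 most, with 25 to 76 counts per library. The causes of the differences between settings were not tested.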
